A study of Mus musculus with 15 samples.

Results

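Macrophages given heme-albumin at 400 µM were set against macrophages given it at 200 µM, to ask what changed in the RNA when the dose was doubled. The comparison used 6 of the 15 libraries of the series, 3 at each dose, chosen by the dose in their labels and joined in pairs by the date their columns carry. All were bone marrow derived macrophages of mice 8 to 10 weeks old, whose strain and sex are not stated in the labels, grown for 7 days in macrophage colony-stimulating factor (M-CSF) at 10 ng/ml. The 400 µM libraries had heme-albumin at 400 µM added (the treatment tag of replicate 2 reads 401 µM and that of replicate 3 reads 402 µM, but titles and protocol state 400 µM for all), the 200 µM libraries had heme-albumin at 200 µM, and 3 untreated libraries grown in M-CSF alone gave the level without heme. Heme-albumin stands in the study for the load that a macrophage receives when it takes up red blood cells. How long the cells were treated is not stated in the labels. Nor do the labels say whether replicates are separate animals, and the p-values below therefore describe variation among these cultures or libraries, part of which may be technical.

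Macrophages of liver, spleen and marrow clear old red blood cells and break down their heme with heme oxygenase 1 (Hmox1), exporting the iron through ferroportin (Slc40a1). Free heme releases the repressor BACH1 from DNA and lets NRF2 switch on genes for glutathione and for the detoxification of oxidants. The membrane cholesterol taken up with a red blood cell is handled by another programme, in which liver X receptors (LXR) bound to oxysterols induce the exporters Abca1 and Abcg1, apolipoprotein E and fatty acid desaturation.

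Total counts were 9109301, 9069999 and 13182889 in the 400 µM libraries of replicates 1, 2 and 3, each carrying its own date (the first, the second and the third below), and 14329361, 12705027 and 9819362 in the 200 µM libraries. The libraries of the second date stood apart at both doses. Set against the other libraries of their dose, their counts gave chi-square values per degree of freedom between 49.7 and 62.9 at 400 µM and between 22.9 and 36.6 at 200 µM; the first and the third date gave 10.9 at 400 µM and 8.59 at 200 µM. Several of the genes below had their highest or lowest level there, at both doses. The macrophage genes Csf1r, Adgre1, Itgam, Cd68, Spi1 and Lyz2, the markers of the labelled cell type, were all abundant enough to be tested, and none of them passed the test between the doses, while 4 of 16 genes of a wider macrophage list fell (below). The T cell genes Cd3e, Cd3d, Cd3g and Cd8a and the dendritic cell genes Flt3, Siglech and Ccr7 were at 0 in all 6 libraries, while Il7r and Itgax of the same marker lists were measured and rose (below).

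In the model fitted to all 15 libraries with a term for the date, no gene passed an adjusted p of 0.05 between 400 and 200 µM (edgeR quasi-likelihood test, 11883 genes). In that fit 910 genes were higher (7.66%) and 1133 lower (9.53%) at 400 µM with an unadjusted p under 0.05, and the smallest adjusted p was 0.074, for Tmem86a and Ier3. DESeq2 with the same libraries and design called 28 genes higher and 24 lower. In the model restricted to the 6 heme-albumin libraries, again with the date as a replicate block, 147 genes were higher at 400 µM (1.31% of 11192 tested) and 97 were lower (0.867%). The first fit estimates the spread over all 5 groups, and the second over the differences between the doses at the 3 dates. The words rose, fell and passed refer below to this date-paired fit at an adjusted p of 0.05, and changes are log2 fold changes of 400 over 200 µM ± SE. All 244 genes that passed moved the same way at the 3 dates, as did 52.8% of all genes tested. All had the same sign in the 15-library fit, where 174 of them had an unadjusted p under 0.05. That fit holds the same 6 libraries, so the shared sign is not separate evidence. In 102 of the 244 genes (41.8%) the levels of the doses did not overlap. Over all genes tested, 10.1% lay wholly higher and 13.0% wholly lower at 400 µM. The change was at least 2-fold for 52 of the genes that rose and 28 of those that fell.

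**Figure D1:**
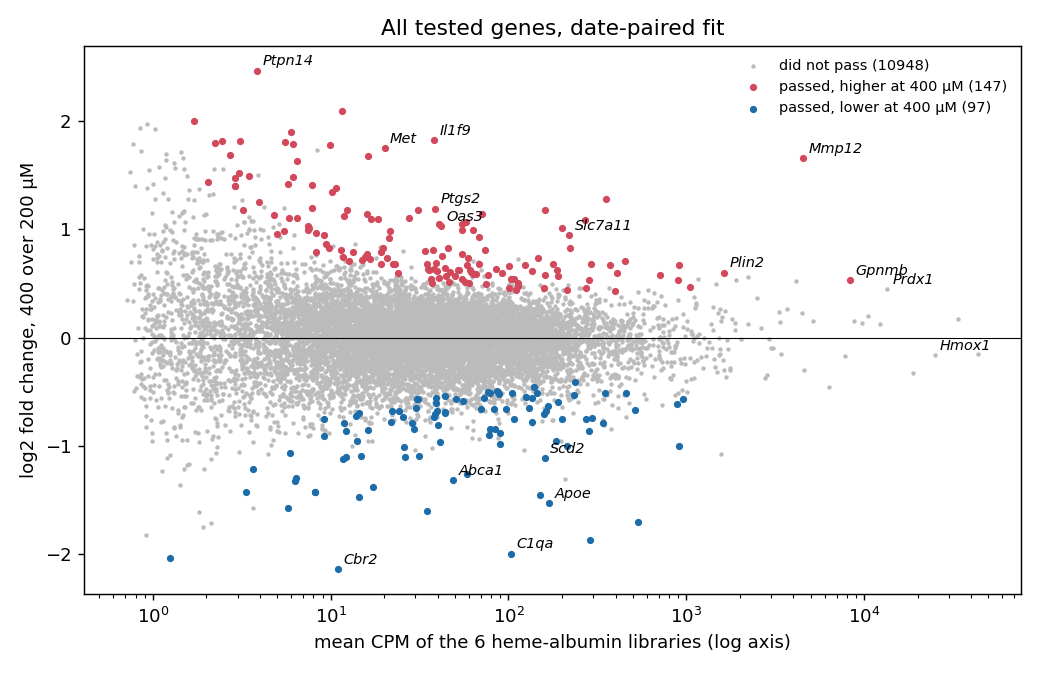
Each point is a gene tested in the date-paired fit, with its mean level over the 6 heme-albumin libraries in CPM (counts scaled to the library total, log axis) against its log2 fold change, 400 over 200 µM. Red points are the 147 genes that rose, blue points the 97 that fell and grey points those that did not pass; Mmp12 is a high red point at the right, and Hmox1, more abundant still, lies near 0.

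In the date-paired fit the 95% interval of the change lay within 1.5-fold either way for 7055 of 11192 genes (63.0%) and within 2-fold for 10040 (89.7%). The median change of all genes was 0.01, with quartiles of -0.19 and 0.18. The 15-library fit was less precise, with 6277 of 11883 genes (52.8%) within 1.5-fold and 9405 (79.1%) within 2-fold. Against the untreated libraries, 1895 genes were higher (15.9%) and 1514 lower (12.7%) at 400 µM, and 1799 were higher (15.1%) and 1358 lower (11.4%) at 200 µM, in the 15-library fit. Those comparisons share the untreated libraries, and each shares its heme-albumin libraries with the comparison of the doses.

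Genes of the LXR programme for exporting cholesterol fell at the higher dose. Of 15 tested genes on a list of LXR targets for lipid efflux and desaturation, 9 fell and none rose, and the median change of the 15 was -0.84. Abca1, which loads cholesterol onto lipid-poor apolipoproteins at the cell surface, had 22.9, 30.7 and 30.0 CPM (counts scaled to the library total) in the 400 µM libraries of replicates 1, 2 and 3, against 56.9, 74.1 and 78.4 CPM in the 200 µM libraries. Every 400 µM library lay below every 200 µM library, and the date differences were -1.31, -1.27 and -1.38. Its change was -1.32 ± 0.10 (adjusted p = 0.00108), 2.49-fold lower at 400 µM. In the 15-library fit its unadjusted p was 0.000415 and its adjusted p 0.259. Of the 15 tested genes of the list, 7 were lower in that fit with an unadjusted p under 0.05. Across the doses Abca1 averaged 105 ± 24.3 CPM without heme, 69.8 ± 11.4 at 200 µM and 27.9 ± 4.33 at 400 µM (SD, n = 3 each).

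Apoe, the apolipoprotein that macrophages secrete as an acceptor of cholesterol, had 95.5, 33.3 and 148 CPM at 400 µM, against 235, 138 and 370 CPM at 200 µM. The ranges overlapped, because the library of the third date at 400 µM lay above the second-date library at 200 µM, but Apoe was lower at each date, by -1.30, -2.05 and -1.33. It fell by 1.53 on the log2 scale, with an SE of 0.14 (adjusted p = 0.0025). Pltp, which moves phospholipid between lipoproteins, fell as well (-1.46 ± 0.20, adjusted p = 0.0114), with 101, 51.2 and 93.3 CPM at 400 µM and 201, 242 and 216 CPM at 200 µM. Apoc2, the cofactor of lipoprotein lipase, fell by 1.42 (SE 0.17, adjusted p = 0.00686); a predicted gene that overlaps it, Gm44805, holds identical counts, so the reads cannot be assigned to Apoc2 with certainty. Pltp overlaps Ctsa on the other strand, and how strand was counted is not stated in the sources.

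Abcg1, which exports cholesterol to mature lipoproteins, had 35.3, 90.3 and 57.6 CPM at 400 µM and 74.98, 140 and 104 CPM at 200 µM. It fell at every date (-0.84 ± 0.11, adjusted p = 0.00969) although the levels overlapped. Its mean in the untreated libraries was 82.2 ± 21.4 CPM, between the means of the doses. Srebf1, the transcription factor of fatty acid synthesis, fell by 0.84 (SE 0.13, adjusted p = 0.0182), with 76.8, 35.1 and 59.7 CPM at 400 µM and 114, 84.1 and 101 CPM at 200 µM. Arl4c (-0.56 ± 0.10, adjusted p = 0.0252) completed the 9. Tmem86a, a gene outside the list with a role in lysoplasmalogen breakdown, fell by 0.79 (SE 0.11, adjusted p = 0.0137). Abcg1, Srebf1, Arl4c and Tmem86a were named after their values were seen. Nr1h3, which encodes LXR alpha, did not pass (-0.01), nor did Lpcat3 (-0.22 ± 0.09) or the lipoprotein lipase gene Lpl (0.20 ± 0.09). Mylip (-0.06 ± 0.16), Cd5l (-0.075 ± 0.18) and Smpdl3a (0.125 ± 0.11) of the list did not pass either. Cd5l averaged 94.9 CPM without heme, 480 at 200 µM and 473 at 400 µM, and Smpdl3a 248, 371 and 410 CPM.

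The desaturases Scd1 and Scd2, which make monounsaturated fatty acids, were far below the untreated level at both doses and lower again at 400 µM. Scd2 averaged 1314 ± 93.8 CPM without heme, 219 ± 33.0 at 200 µM and 101 ± 14.1 at 400 µM (SD, n = 3 each), and fell by 1.11 between the doses (SE 0.13, adjusted p = 0.00686). Its 400 µM libraries, at 100.3, 115 and 86.9 CPM, all lay below the 200 µM libraries, at 256, 191 and 212 CPM. Scd1 had 1.42, 2.76 and 1.26 CPM at 400 µM and 6.37, 4.65 and 3.50 CPM at 200 µM, against a mean of 202 CPM without heme. Its fall of 1.42 (SE 0.30) passed narrowly, with an adjusted p of 0.0498, and DESeq2 on the same 6 libraries gave 0.053. In the 15-library fit the unadjusted p was 0.0756 for Scd2 and 0.0761 for Scd1. The sequences of Scd1 and Scd2 are similar, so reads could be shared between them.

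Promoters are shown for a pair of these lipid genes, and for an interferon-induced gene described below, because each holds letters that resemble the element its regulator is known to bind. They are the 250 bases before the RefSeq start (GRCm38.p6), written 5′ to 3′ on the gene's strand. Capitals in Abca1 mark an E-box (CACGTG) and a loose form of the LXR direct repeat (GGTNA and GGTCA, 5 bases apart, here on the opposite strand), capitals in Srebf1 the same loose repeat on the opposite strand, and capitals in Oas3 the core of the interferon-stimulated response element (GAAA and GAAA, 2 bases apart). Abca1 is from chr4:53159896-53160145 (minus strand), Srebf1 from chr11:60210472-60210721 (minus strand, within an intron of the longer transcript) and Oas3 from chr5:120777660-120777909 (minus strand).
Abca1: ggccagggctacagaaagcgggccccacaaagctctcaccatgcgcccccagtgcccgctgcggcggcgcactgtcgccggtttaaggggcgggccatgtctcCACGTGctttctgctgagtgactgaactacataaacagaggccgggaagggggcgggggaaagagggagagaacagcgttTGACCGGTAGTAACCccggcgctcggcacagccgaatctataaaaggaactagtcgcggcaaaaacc
Srebf1: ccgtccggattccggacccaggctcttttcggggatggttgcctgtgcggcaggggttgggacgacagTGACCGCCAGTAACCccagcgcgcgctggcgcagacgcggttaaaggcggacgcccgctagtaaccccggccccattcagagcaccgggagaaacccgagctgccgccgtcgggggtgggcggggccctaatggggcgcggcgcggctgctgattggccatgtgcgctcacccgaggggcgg
Oas3: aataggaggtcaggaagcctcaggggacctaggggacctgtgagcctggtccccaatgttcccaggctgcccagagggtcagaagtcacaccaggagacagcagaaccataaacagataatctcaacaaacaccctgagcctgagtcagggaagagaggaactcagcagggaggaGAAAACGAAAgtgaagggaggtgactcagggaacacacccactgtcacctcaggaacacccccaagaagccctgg
The loose repeat begins 67 bases before the start in Abca1 and 182 bases before it in Srebf1, and the interferon core 75 bases before it in Oas3. Counting both strands, the loose repeat occurs in 58 of 32851 mouse promoters of this length (0.177%), the interferon core in 978 (2.98%) and the E-box in 1978 (6.02%). The strict repeat, 2 AGGTCA half-sites 4 bases apart, occurs in 5 (0.0152%), and the antioxidant response element core TGACNNNGC in 3338 (10.2%). Of the 9 LXR targets that fell, 6 had a promoter entry and 2 of these, Abca1 and Srebf1, held the loose repeat; of the 6 interferon genes that rose, 3 had an entry and 2, Oas1a and Oas3, held the interferon core. Over the 72 genes with an entry among 95 looked up for the text, which did not include Oas1a, the loose repeat was found in 2 and the interferon core in 2, Oas3 and the p53 target Plk2; the E-box was found in 5, the antioxidant core in 11 and the strict repeat in 0. The genes shown were chosen because they match, and the loose repeat and the interferon core were chosen after the values were seen. A match is a resemblance of letters and was not tested as a binding site.

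Few genes of cholesterol synthesis or lipid storage passed. Over all tested genes 1.31% rose and 0.867% fell, and at that share lists of this size could hold none that fell. Of 24 tested genes of cholesterol synthesis and uptake, 2 rose and none fell (median 0.19). They were Hsd17b7 (0.74 ± 0.14, adjusted p = 0.035) and Msmo1 (0.51 ± 0.10, adjusted p = 0.0465), which act late in the pathway. Hmgcs1, an early enzyme, and Cyp51 had changes of 0.56 ± 0.12 and 0.57 ± 0.14 that did not pass. These genes stood below the untreated level at both doses: Msmo1 averaged 263 CPM without heme and Hmgcs1 226 CPM. Hsd17b7 had 30.4, 21.7 and 24.7 CPM at 400 µM and 21.3, 10.9 and 14.9 CPM at 200 µM, without overlap. Among 14 tested genes of PPAR signalling and lipid storage, 2 rose and none fell (median 0.33). Plin2, the coat protein of lipid droplets, had 1662, 2458 and 1733 CPM at 400 µM and 1076, 1713 and 1125 CPM at 200 µM (0.60 ± 0.09, adjusted p = 0.016), and Hilpda, an inhibitor of droplet lipolysis, rose by 0.71 (SE 0.15, adjusted p = 0.0463). Pparg and Fabp4 had changes of 0.68 ± 0.19 and 0.80 ± 0.20 and did not pass.

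**Figure D2:**
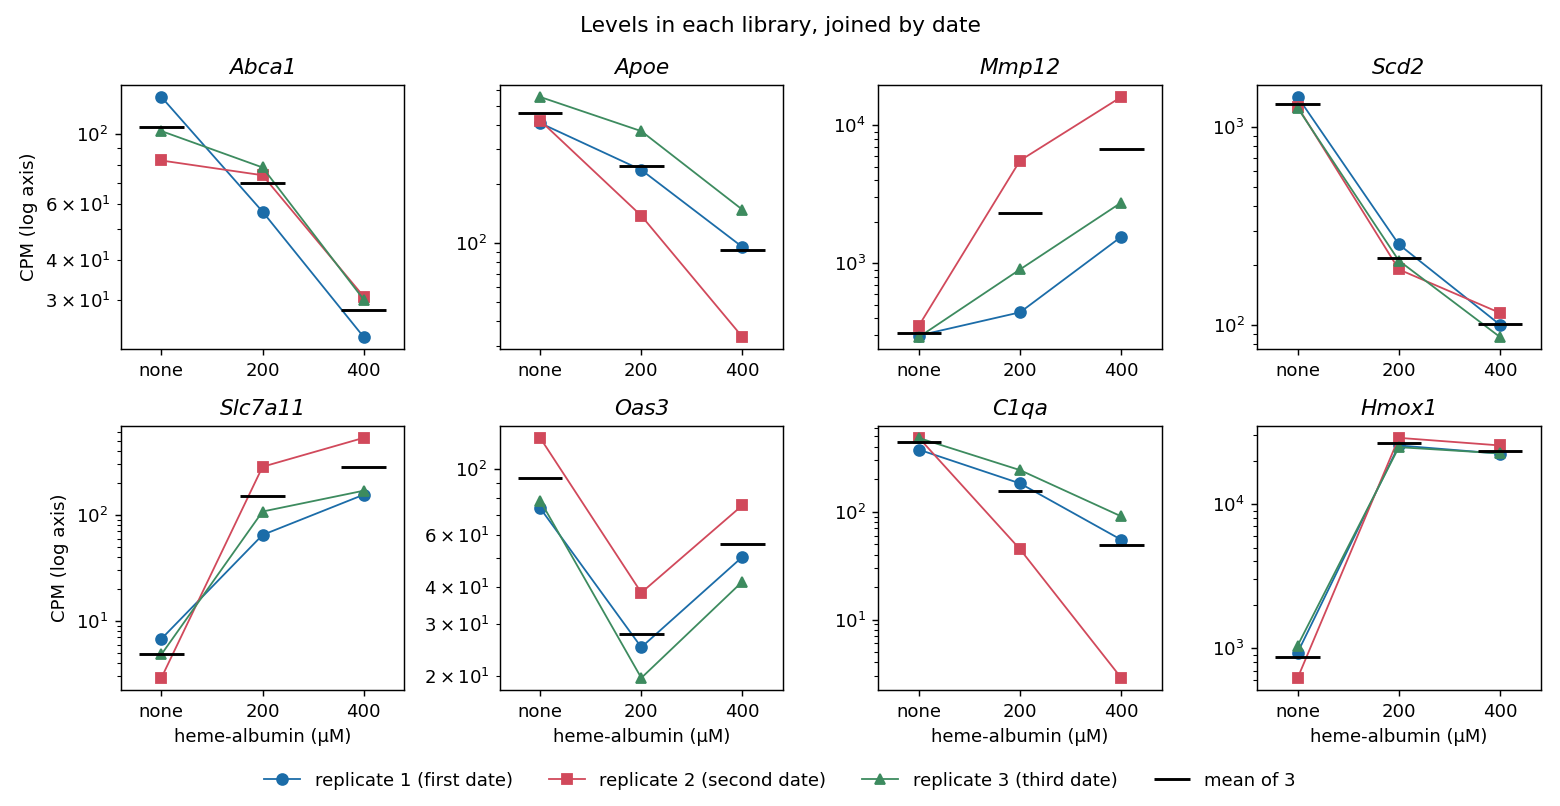
Levels of 8 genes in CPM (log axis, a scale for each panel) in libraries without heme-albumin and at 200 and 400 µM; points of a date are joined, and black bars are means of 3. Abca1, Apoe, Scd2 and C1qa are lower at 400 than at 200 µM at every date, Mmp12, Slc7a11 and Oas3 are higher at every date, and Hmox1 averages 866 CPM without heme, 26430 CPM at 200 µM and 23490 CPM at 400 µM.

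Mmp12, the macrophage elastase, which cuts elastin and other matrix proteins, rose at 400 µM. It had 1555, 16020 and 2750 CPM at 400 µM, against 441, 5547 and 902 CPM at 200 µM. The libraries of the second date were far above the others at both doses, so the ranges overlapped, while the date differences were 1.82, 1.53 and 1.61. The change was 1.66 ± 0.10 (adjusted p = 0.000553), 3.16-fold higher at 400 µM; in the 15-library fit its unadjusted p was 0.0706. No other of the 17 tested matrix remodelling genes passed (median 0.12), and Mmp9 and Mmp27, the largest differences among them, stood at -0.71 ± 0.33 and -0.73 ± 0.19. Mmp12 overlaps Mmp1b on the other strand.

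Of 18 tested inflammatory cytokines and chemokines, 4 rose and 2 fell, with a median of -0.12. Cxcl3, a neutrophil attractant, had 2.19, 49.6 and 4.17 CPM at 400 µM and 0.29, 11.7 and 1.27 CPM at 200 µM (2.10 ± 0.21, adjusted p = 0.00327). Its near relative Cxcl2 rose too (0.83 ± 0.11, adjusted p = 0.00836). Il1f9, which encodes interleukin 36 gamma, had 19.7, 130 and 22.6 CPM at 400 µM and 3.43, 46.3 and 6.79 CPM at 200 µM (1.82 ± 0.18, adjusted p = 0.0029). Ptgs2, the inducible cyclooxygenase, had 30.8, 93.9 and 35.8 CPM at 400 µM and 13.5, 41.5 and 15.8 CPM at 200 µM. Its date differences of 1.19, 1.18 and 1.18 were nearly equal (1.19 ± 0.10, adjusted p = 0.00187). The second-date libraries were the highest for all of these at both doses. The chemokines Ccl6 (-0.79 ± 0.09, adjusted p = 0.00544) and Ccl7 (-0.59 ± 0.11, adjusted p = 0.0367) fell. Tnf stood at 0.01, Il1b and Il6 were too low to be tested, and Tgfb1, a gene of the anti-inflammatory list, fell by 0.53 (SE 0.10, adjusted p = 0.0395) as the only member of 14 to pass. Cxcl2 and Ccl7 were named after their values were seen.

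The genes of complement C1q fell at 400 µM. C1qa, C1qb and C1qc, its chains, were among the 4 of 16 core macrophage genes that fell, with none that rose (median -0.36, 15 of 16 negative). C1qa had 54.9, 2.88 and 90.4 CPM at 400 µM and 183, 44.8 and 242 CPM at 200 µM. Its difference was far larger at the second date (-3.94) than at the first and the third (-1.74 and -1.42), and its change was -2.00 ± 0.31 (adjusted p = 0.0177). C1qb (-1.71 ± 0.35) and C1qc (-1.87 ± 0.37) showed the same order of dates and passed with adjusted p of 0.0463 and 0.0409; DESeq2 on the 6 libraries gave 0.108 and 0.0866. Without the second date the changes were -1.56 for C1qa, -1.07 for C1qb and -1.23 for C1qc. Cx3cr1, the fractalkine receptor, fell by 1.01 (SE 0.21, adjusted p = 0.0498), and it overlaps several genes on both strands. Its change was -0.67 without the second date. Spi1, which encodes the macrophage factor PU.1, stood at -0.56 ± 0.17 and did not pass. In bulk RNA, fewer cells of a type and less RNA per cell cannot be told apart.

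Of 7 tested genes of tissue macrophage identity, Slco2b1, Folr2 and Maf fell and none rose (median -0.75). Slco2b1, a transporter of organic anions, fell by 1.57 (SE 0.19, adjusted p = 0.00717), and the folate receptor gene Folr2 by 0.88 (SE 0.15, adjusted p = 0.0268). Maf, a transcription factor that keeps macrophages out of the cell cycle, had 179, 69.5 and 202 CPM at 400 µM and 296, 132 and 315 CPM at 200 µM (-0.75 ± 0.09, adjusted p = 0.00734). Siglec1, the sialoadhesin of marrow and lymph node macrophages, stood at -1.04 ± 0.25 and did not pass. Id3, of the same list, went the other way (1.067 ± 0.265) and did not pass either. Esam, an adhesion molecule at 0.19 CPM without heme, averaged 225 ± 16.6 CPM at 400 µM and 205 ± 29.9 CPM at 200 µM (SD, n = 3 each) and did not pass between the doses (0.15 ± 0.12). Of 19 scavenger and phagocytic receptors, 3 fell and 1 rose (median -0.15). Stab1 (-1.003 ± 0.202, adjusted p = 0.0434), Mertk (-0.84 ± 0.14, adjusted p = 0.0252) and its ligand Gas6 (-0.74 ± 0.10, adjusted p = 0.00836) serve the uptake of dying cells and altered proteins. The change of Stab1 was -0.63 without the second date. Clec7a, the beta-glucan receptor Dectin-1, rose by 0.68 (SE 0.13, adjusted p = 0.0414), and Axl stood at 0.55 ± 0.16 and did not pass. Marco, a scavenger receptor, had 2037, 193 and 1459 CPM at 400 µM and 2454, 1267 and 1957 CPM at 200 µM, a wide spread at the second date, and did not pass (-1.08 ± 0.40). Mrc1, the mannose receptor, was the only member of 12 tested alternative activation genes to pass and fell by 0.86 (SE 0.10, adjusted p = 0.00717), with 237, 65.1 and 319 CPM at 400 µM, against 437, 138 and 498 CPM at 200 µM. The median of the 12 was 0.15, with 7 positive. Ear2 (1.72 ± 0.60) and Chil3 (1.16 ± 0.42) leaned the other way and did not pass, at means of 2.19 and 1.78 CPM at 400 µM.

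**Figure D3:**
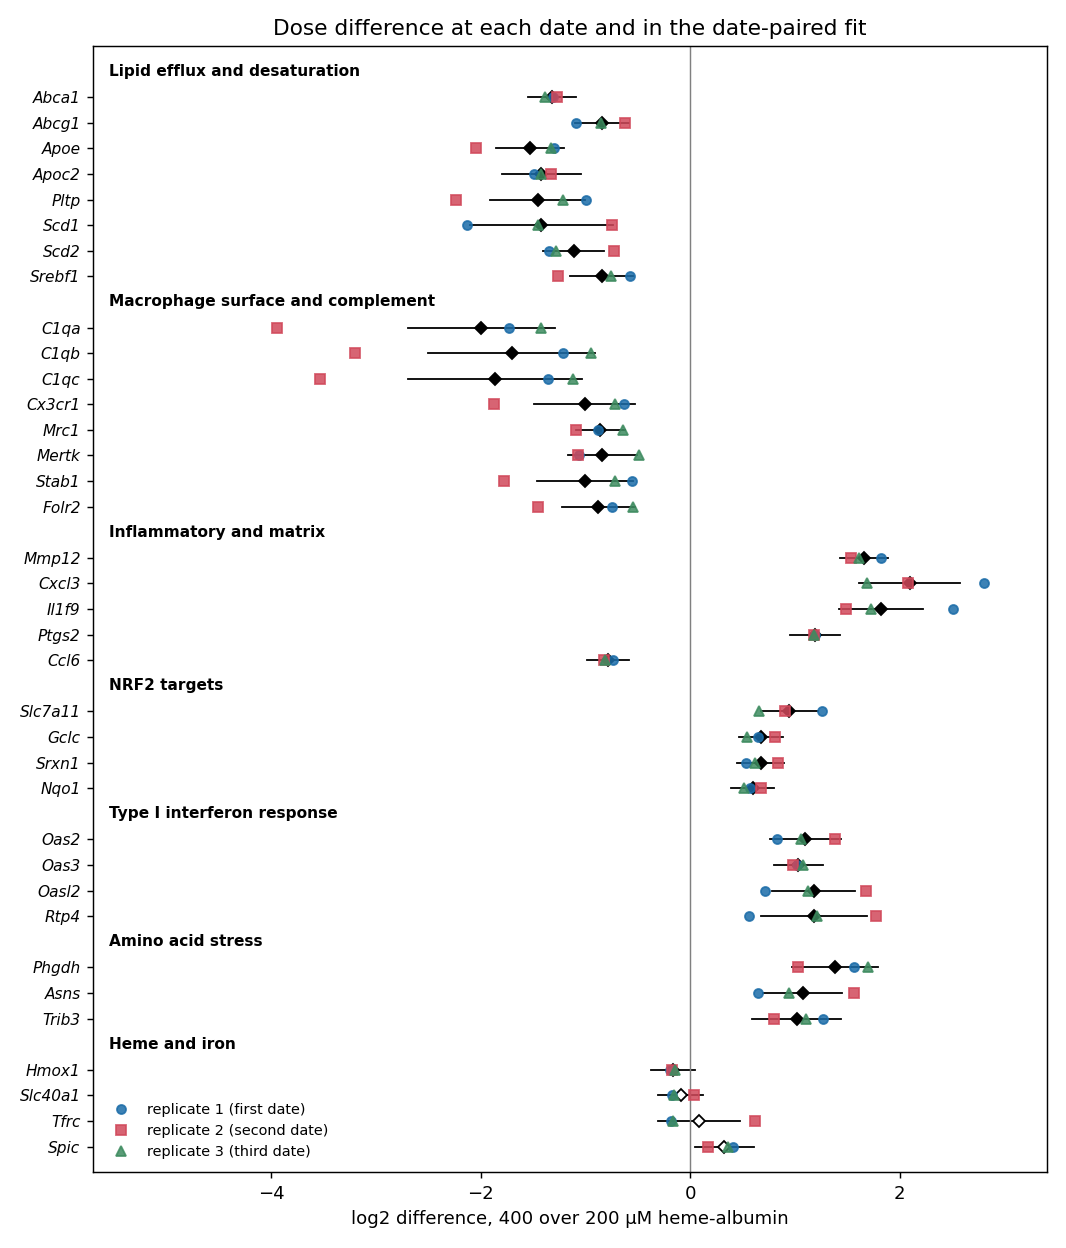
Log2 differences of 400 over 200 µM at each of the 3 dates (coloured points), with the estimate of the date-paired fit (diamond, filled where it passed) and its 95% interval (line). The C1q chains lie far lower at the second date than at the other dates, the 3 dates of Abca1 lie close together, as do those of Ptgs2 and of Oas3, and the estimates of the heme and iron genes are open diamonds, with Tfrc at 0.62 at the second date and below 0 at the other dates.

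None of 22 tested genes of heme breakdown, heme transport and iron handling passed (median -0.06), nor did any of 10 heme synthesis enzymes (median -0.07). Over all tested genes 1.31% rose and 0.867% fell. At that share a list of this size, here or below, could hold no passing gene. The largest changes of the heme and iron list were those of Cd163 (-0.82 ± 0.26, interval -1.40 to -0.24) and Lrp1 (-0.57 ± 0.22, interval -1.06 to -0.08). Neither passed, and Lrp1 differed in sign between the dates. Hmox1 had 22410, 25560 and 22510 CPM at 400 µM and 25560, 28870 and 24860 CPM at 200 µM, against a mean of 866 CPM without heme. It was slightly lower at 400 µM at every date (-0.16 ± 0.09, adjusted p = 0.304), and the 95% interval of -0.37 to 0.05 lies within a 1.5-fold change. In the 15-library fit the interval of Hmox1 was wider, -0.67 to 0.33, and reached beyond a 1.5-fold change. Slc40a1 averaged 2891 ± 423 CPM at 400 µM and 3113 ± 586 CPM at 200 µM (-0.09 ± 0.10, interval -0.31 to 0.12, and -0.59 to 0.42 in the 15-library fit). The transferrin receptor Tfrc, which brings iron in, averaged 21.7 CPM at 400 µM and 20.7 CPM at 200 µM, against 220 CPM without heme (0.08 ± 0.17, interval -0.31 to 0.47). Spic, the factor that heme induces in red pulp macrophages, averaged 22.1 CPM at 400 µM and 17.7 CPM at 200 µM (0.32 ± 0.12, adjusted p = 0.154).

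Some genes of the NRF2 programme rose with the dose. Of 24 tested NRF2 targets, 4 rose and none fell (median 0.16). Slc7a11, the cystine importer that feeds glutathione synthesis, had 155, 534 and 170 CPM at 400 µM and 64.8, 285 and 108 CPM at 200 µM (0.94 ± 0.12, adjusted p = 0.00768). Gclc, the catalytic subunit of the enzyme that makes the glutathione precursor, rose by 0.67 (SE 0.10, adjusted p = 0.0123), while its partner subunit Gclm stood at 0.26 ± 0.10 and did not pass. Srxn1, which repairs peroxiredoxins, rose by 0.67 (SE 0.10, adjusted p = 0.015), and the quinone reductase Nqo1 by 0.59 (SE 0.09, adjusted p = 0.0162). All 4 were highest in the second-date library at each dose, and their ranges overlapped between the doses. Their unadjusted p in the 15-library fit was between 0.0715 (Nqo1) and 0.302 (Slc7a11). Osgin1 (-0.467 ± 0.173) and Prdx1 (0.445 ± 0.122), the largest changes among the NRF2 targets that did not pass, had opposite signs. Among 12 genes of glutathione use and defence against lipid peroxidation, Gpx1, a glutathione peroxidase, fell (-0.70 ± 0.14, adjusted p = 0.037), and no other passed.

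Of 28 tested genes of the integrated stress response, the programme that ATF4 drives when amino acids or heme run short, 3 rose and 1 fell (median 0.26, 23 positive). Phgdh, the first enzyme of serine synthesis, had 13.1, 23.1 and 9.35 CPM at 400 µM and 4.44, 11.3 and 2.86 CPM at 200 µM (1.38 ± 0.18, adjusted p = 0.00893). Asns, which makes asparagine, had 55.0, 137 and 48.0 CPM at 400 µM and 35.1, 46.3 and 24.9 CPM at 200 µM, without overlap (1.07 ± 0.17, adjusted p = 0.0174). Psat1, the enzyme after Phgdh in serine synthesis, stood at 0.49 ± 0.14 and did not pass (adjusted p = 0.0876). The pseudokinase gene Trib3 rose by 1.02 (SE 0.19, adjusted p = 0.0338), and the stress protein gene Nupr1 fell by 0.75 (SE 0.15, adjusted p = 0.0463). Phgdh averaged 16.1 CPM without heme, 6.21 CPM at 200 µM and 15.2 CPM at 400 µM. In the same order Asns averaged 55.3, 35.4 and 79.9 CPM, Trib3 8.45, 5.19 and 9.89 CPM, and Nupr1 17.7, 11.6 and 6.86 CPM. None of 18 unfolded protein response genes passed (median -0.10, 15 negative). Of 17 heat shock chaperones, Hsp90aa1 rose (0.46 ± 0.10, adjusted p = 0.0498), while Hspa1b (-1.01 ± 0.37) and Hspa1a (-0.74 ± 0.30) did not pass. None of 31 proteasome subunits passed (median -0.09, 26 negative).

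Of 15 p53 targets, Plk2, a stress-induced kinase, rose by 1.09 (SE 0.09, adjusted p = 0.00165), Trp53inp1 rose by 0.60 (SE 0.11, adjusted p = 0.0261) and Sesn1 fell by 0.66 (SE 0.11, adjusted p = 0.0204). Of 13 immediate early genes, 3 fell and none rose (median -0.28): Ier2 (-1.11 ± 0.23, adjusted p = 0.0465), the transcription factor gene Klf2 (-1.09 ± 0.20, adjusted p = 0.0339) and Ier3 (-0.70 ± 0.10, adjusted p = 0.0155). Ier3 had 31.6, 36.2 and 32.2 CPM at 400 µM and 52.1, 63.6 and 48.3 CPM at 200 µM, without overlap. Of 16 glycolysis genes 15 had a negative sign (median -0.37), and Pfkl, the phosphofructokinase of liver type, alone passed (-0.99 ± 0.17, adjusted p = 0.0234). The lactate exporter Slc16a3 stood at -0.96 ± 0.22 and the glucose transporter Slc2a1 at -0.55 ± 0.12. Pfkl differed most at the second date (-1.62, against -0.65 and -0.79), as did Slc16a3 (-1.87, against -0.53 and -0.56). Without the second date the changes were -0.71 for Pfkl, -0.77 for Ier2 and -0.78 for Klf2. None of 24 cell cycle genes passed (median -0.19, 22 negative).

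Some interferon-induced antiviral genes rose at 400 µM. Of 24 tested genes of the type I interferon response, 6 rose and none fell (median 0.36, 21 positive). Oas3, which makes the messenger that activates RNase L, had 50.6, 75.5 and 41.7 CPM at 400 µM and 25.0, 38.3 and 19.7 CPM at 200 µM, without overlap (1.03 ± 0.10, adjusted p = 0.0029). Its mean without heme was 93.2 ± 29.8 CPM, above both doses. Oas2 (1.10 ± 0.15, adjusted p = 0.0103), Oasl2 (1.18 ± 0.17, adjusted p = 0.0151) and Rtp4 (1.18 ± 0.22, adjusted p = 0.0367) rose likewise, each with 400 µM libraries above all 200 µM libraries and untreated libraries higher still on average, at 70.5, 164 and 105 CPM. Oas1a (0.50 ± 0.10, adjusted p = 0.0448) and Ifi204 (0.80 ± 0.15, adjusted p = 0.0395), named after their values were seen, were the others. Usp18 stood at 1.204 ± 0.296 and Isg15 at 0.04, and neither passed. Genes of the Oas family are similar in sequence, so their reads could be shared. No gene of 15 of MHC class I presentation (median -0.19) or of 9 of MHC class II presentation (median -0.16) passed.

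**Figure D4:**
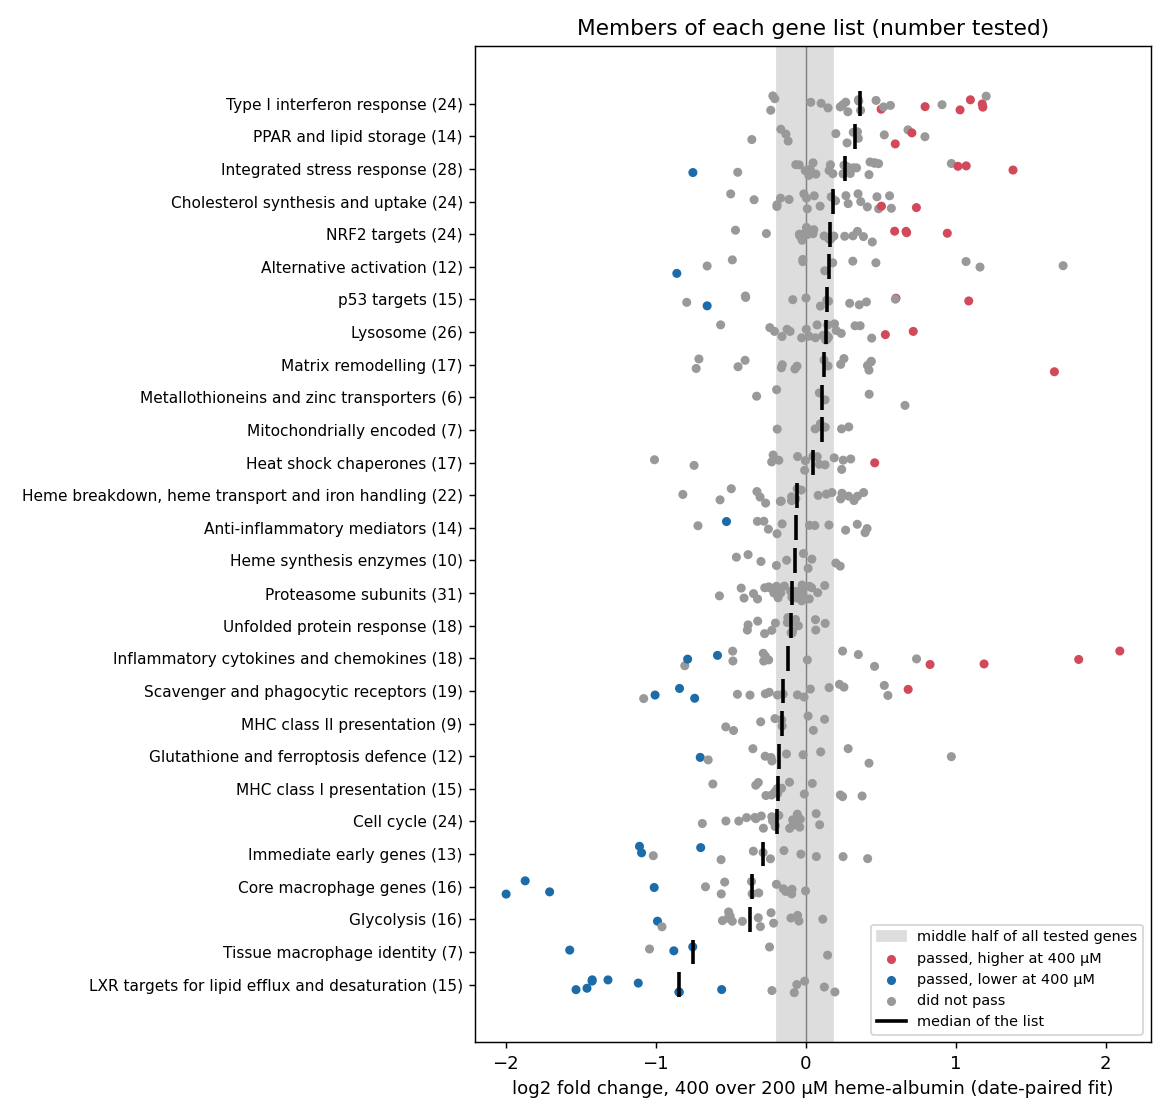
Log2 fold changes, 400 over 200 µM, of the tested members of each gene list with at least 6 tested genes, ordered by their median (black bar), from the date-paired fit. Red and blue points passed, higher and lower; the grey band spans the quartiles of all tested genes, -0.19 and 0.18. The median of the LXR list is -0.84 and that of the type I interferon list 0.36.

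Of 26 lysosomal genes, Gpnmb and Atp6v0d2 rose and none fell (median 0.14). Gpnmb, a glycoprotein of lipid-laden macrophages, had 7316, 14060 and 8051 CPM at 400 µM and 5238, 9928 and 5351 CPM at 200 µM (0.53 ± 0.09, adjusted p = 0.0259). Atp6v0d2, a subunit of the proton pump, rose by 0.72 (SE 0.15, adjusted p = 0.0468). Dcstamp, needed for the fusion of macrophages into giant cells, was the only member of 5 tested osteoclast genes to rise (1.34 ± 0.18, adjusted p = 0.011).

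The largest rises by fold change were in genes of low level. Ptpn14, a phosphatase, had 0.77, 17.4 and 1.42 CPM at 400 µM and 0.07, 3.38 and 0.21 CPM at 200 µM and changed by 2.46 ± 0.29 (adjusted p = 0.00686), with the second-date libraries far above the others. Cd200 had 2.63, 20.0 and 4.87 CPM at 400 µM and 0.14, 6.76 and 1.38 CPM at 200 µM (adjusted p = 0.0204). Cd5 (2.00 ± 0.35), Armcx4 (1.82 ± 0.31), B3gnt5 (1.82 ± 0.28) and Rragd (1.81 ± 0.22) also rose, all under 3 CPM at 200 µM outside the second date, with adjusted p between 0.00717 and 0.0262. Flrt3 had 1.53, 5.75 and 2.99 CPM at 400 µM and 0.29, 2.45 and 0.42 CPM at 200 µM (1.80 ± 0.36, adjusted p = 0.0418). Its change was 2.61 without the second date, and it did not pass without the third (adjusted p = 0.136). The growth factor gene Csf1 had 3.61, 18.3 and 5.58 CPM at 400 µM and 0.72, 7.60 and 0.85 CPM at 200 µM (1.79 ± 0.28, adjusted p = 0.0177), against a mean of 11.1 CPM without heme, and its change was 2.52 without the second date. Met, the receptor of hepatocyte growth factor, had 15.2, 60.4 and 15.6 CPM at 400 µM and 3.65, 21.4 and 4.46 CPM at 200 µM (1.75 ± 0.15, adjusted p = 0.00187). Cd34 had 18.2, 9.95 and 17.8 CPM at 400 µM and 5.37, 4.39 and 3.39 CPM at 200 µM, without overlap (1.78 ± 0.22, adjusted p = 0.00734). The largest fall was that of Cbr2, a carbonyl reductase, with 5.15, 0.24 and 7.31 CPM at 400 µM and 20.96, 5.15 and 27.1 CPM at 200 µM (-2.14 ± 0.26, adjusted p = 0.00686). Ighm, the heavy chain of IgM, had 19.7, 9.71 and 21.4 CPM at 400 µM and 59.9, 25.5 and 73.2 CPM at 200 µM (-1.60 ± 0.12, adjusted p = 0.00108). Fcrls (-1.38 ± 0.23) and Fxyd2 (-1.48 ± 0.22) completed the 12 largest falls with genes already named.

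Of 10 neutrophil markers 3 were tested and S100a8 rose (0.92 ± 0.16, adjusted p = 0.0258); the markers summed to 17.9 to 55.5 CPM at 400 µM and 11.4 to 35.1 CPM at 200 µM. Il7r was the only tested gene of 9 T and NK cell markers, and it rose (1.18 ± 0.12, adjusted p = 0.004), with 110, 444 and 135 CPM at 400 µM and 58.2, 155 and 64.7 CPM at 200 µM, while the CD3 genes were at 0; the 9 markers summed to 110 to 444 CPM at 400 µM and 58.7 to 156 CPM at 200 µM. Of 9 dendritic cell markers 2 were tested, and Itgax rose (1.12 ± 0.19, adjusted p = 0.0234); the 9 summed to 9.75 to 33.4 CPM at 400 µM and 4.44 to 21.1 CPM at 200 µM. The single B cell marker that could be tested, Cd79b, did not pass (-0.57 ± 0.32). No stromal, platelet or mitochondrially encoded gene passed, and no erythroid or mast cell marker was abundant enough to be tested. The part of other cells in the results above was not tested.

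Leaving out a date changed which genes passed. Of 73 named genes that passed, 48 had an unadjusted p under 0.05 in the 15-library fit, where their adjusted p ran from 0.074 to 0.715. Without the first date Scd1 no longer passed (adjusted p = 0.0502), and without the second Ptpn14 could no longer be tested. Without the third date 25 did not pass, among them Arl4c (0.182), Nqo1 (0.125), Gclc (0.0734), Srxn1 (0.103), Plin2 (0.166), Gpnmb (0.233), Trib3 (0.104), Rtp4 (0.0714), Scd1 (0.112) and Ier3 (0.0754), with the adjusted p in parentheses. Hsd17b7 (0.145), Msmo1 (0.209) and Hilpda (0.182) were lost there too, so with Plin2 no gene of the cholesterol synthesis or lipid storage lists that had passed did so without the third date. Abca1 changed by -1.33 without the first date, -1.35 without the second and -1.29 without the third, and passed each time (largest adjusted p = 0.00365).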

How the data were processed

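RNA of 15 cultures of bone marrow derived macrophages was made into stranded TruSeq libraries, per the labels' protocols. The authors deposited raw counts per gene in 1 table. The submitters' processing notes name STAR 2.7.0e, SAMtools 1.9, featureCounts and GRCm38.p5. No source used here states the featureCounts version, the annotation or how strand was counted, so overlapping and antisense genes cannot be told apart with certainty. Of 25700 gene identifiers, 25664 were matched to GENCODE M21 (GRCm38), and promoter sequences came from RefSeq (GRCm38.p6; 72 of 95 genes looked up had an entry).

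Totals ran from 8427352 to 28587416 counts, so low genes rest on few counts, and TMM factors from 0.886 to 1.122. CPM (counts scaled to the library total) were computed from the deposited counts with TMM-scaled totals. The tests were edgeR's quasi-likelihood tests (edgeR 4.0.16, R 4.3.3) after filterByExpr and TMM, with Benjamini-Hochberg adjustment over all genes tested and a threshold of 0.05. The first model held all 15 libraries, a mean per group and the date as a block (8 residual degrees of freedom). A second model, the date-paired fit, held only the 6 heme-albumin libraries with the same block (2 residual degrees of freedom). Date differences used a prior count of 0.5.

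The column names carry 3 dates, 1 per replicate number, so the numbers pair the samples; no source used here says what was done on those dates. As a check, deviations from the group means were correlated over genes between libraries at 400 and 200 µM. The values were 0.292 to 0.474 for the same date and -0.436 to 0.193 (median -0.255) for different dates. Deviations cancel within a group, so the values for different dates are no independent baseline. Between 400 µM and untreated libraries they were 0.0364 to 0.145 for the same date and -0.118 to 0.0368 for different dates.

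The named genes were the 12 largest rises and 12 largest falls among genes that passed. These had a mean of at least 1 CPM and the same direction at all dates. Added were up to 4 of smallest p per list that passed, up to 2 of largest change per list that did not, and 13 markers. Not all of those that did not pass are described above. Left out were, among others, Bbc3 (-0.79), Pmaip1 (0.60), Junb (-1.015), Nr4a1 (-0.56), Cxcl10 (-0.805), Il1rn (0.74), Tfeb (-0.57) and Gla (0.44). Because the 15-library model called none, the rule was applied to the date-paired fit, a choice made after the values were seen. The members and the gene lists were chosen with earlier results of these data known, so no list count is independent evidence. Alternatives were DESeq2 1.42.0, other scaling factors, other filters, other sets of libraries, the block left out, and each heme-albumin library or date left out. Python 3.11.15 and matplotlib 3.10.9 drew the figures.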

Additional observations from a re-analysis of the deposited data

How the results depend on the processing

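In the 15-library fit the counts of genes that passed stayed at 0 higher and 0 lower with DESeq2 size factors, upper-quartile factors, every gene with a count, only genes of 5 CPM in 3 libraries, no replicate block, and with any single heme-albumin library left out. They were 28 and 24 with DESeq2, 147 and 97 with only the 6 heme-albumin libraries and the replicate block, 0 and 0 with those libraries and no replicate block, 18 and 8 with those libraries and the untreated ones (chosen after seeing the data), and 0 higher with 0 to 4 lower when both heme-albumin libraries of a date were left out (4 without the second date). The alternatives for the date-paired fit, all with the replicate block, were also chosen after seeing the data. Its 147 higher and 97 lower became 176 and 245 with DESeq2, 138 and 90 with DESeq2 size factors, 256 and 141 with upper-quartile factors, 338 and 490 with every gene that had a count, and 92 and 50 with the 5 CPM filter. Leaving out a date gave 54 to 809 higher and 36 to 822 lower, fewest without the third date (54 and 36), 288 and 787 without the first and most without the second (809 and 822), with 1 residual degree of freedom. Of the 244 genes, 219 passed with DESeq2, 230 without the first date, 242 without the second and 80 without the third. With the 5 CPM filter, 15 named genes no longer passed, with adjusted p of 0.0524 to 0.0707. Leaving out single heme-albumin libraries or a date in the 15-library fit, where no gene passes, turned the sign of 10 named genes: Slc7a11 ran from -0.16 to 2.10, Gclm from -0.08 to 0.47, Prdx1 from -0.05 to 0.78, Tfrc from -0.17 to 0.28, Spic from -0.08 to 0.80, Clec7a from -0.15 to 1.31, Atp6v0d2 from -0.04 to 1.32, S100a8 from -0.67 to 2.55, Hmox1 from -0.40 to 0.06 and Slc40a1 from -0.41 to 0.14. The 8 of these with a positive value over all libraries were lowest without the second library at 400 µM. In the date-paired fit Tfrc ran from -0.17 without the second date to 0.22 without the first. The cause was not tested. Depth limits genes near 1 CPM most.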
